A study of Rattus norvegicus with 12 samples.

Results

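Prostaglandins and leukotrienes are lipid mediators made from arachidonic acid, and 10 genes of their synthesis, breakdown and signalling were described in rat kidney grafts that lacked or carried the efflux transporter MRP2 (gene Abcc2). They were taken as every probe set that the platform annotation assigned to 1 of these genes alone, which gave 13 of the 31099 probe sets on the array and 10 of the 14217 genes named by such probe sets. Renal cortex was taken from 12 male rat kidney grafts, 1 array per graft. The ABCC2-/- group held 6 grafts, called MRP2 deficient in the labels, and the wild-type group held the other 6. All 12 kidneys had been transplanted into wild-type recipients, so both groups shared the transplantation, and cells that enter a graft from the blood carry the recipient's genotype. Strain, age, the causal mutation and the time after transplantation are not given in the sources used here. The labels do not say that each graft had its own donor, and every p-value here rests on the spread between arrays, part of which may be technical.

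Phospholipases free arachidonic acid from membranes, and the cyclooxygenases Ptgs1 and Ptgs2 turn it into the unstable prostaglandin H2, from which terminal synthases make the individual prostaglandins. The lipoxygenase Alox5, helped by the membrane protein Alox5ap, makes leukotriene A4 instead, which Lta4h hydrolyses to leukotriene B4 and Ltc4s joins to glutathione as leukotriene C4. Leukotriene C4 is a substrate of MRP2, and prostaglandin E2 acts in the kidney on salt and water handling, renin release and blood flow before Hpgd inactivates it.

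RefSeq promoter sequences of build GRCr8, from 250 bases before to 50 after the annotated start, were found for 9 of the 10 genes, all except Alox5ap. The 4 shown belong to the genes to which the values below return most often: the breakdown enzyme Hpgd (chr16:39034782-39035081, minus strand), the leukotriene C4 synthase gene Ltc4s (chr10:35063545-35063844, minus strand), the prostaglandin E synthase gene Ptges (chr3:34586938-34587237, minus strand) and the cyclooxygenase gene Ptgs2 (chr13:64713813-64714112, plus strand). The Ltc4s window lies inside the annotated span of its gene (chr10:35060002-35066466), not at the outer 5′ end of that span. Each sequence runs 5′ to 3′ along its gene, and capitals mark the motif matches named after the sequences.
Hpgd: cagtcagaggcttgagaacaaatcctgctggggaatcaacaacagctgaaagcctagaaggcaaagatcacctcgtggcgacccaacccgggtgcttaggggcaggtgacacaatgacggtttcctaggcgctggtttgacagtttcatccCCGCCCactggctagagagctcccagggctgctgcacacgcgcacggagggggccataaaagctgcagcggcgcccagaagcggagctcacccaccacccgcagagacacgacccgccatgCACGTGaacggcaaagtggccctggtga
Ltc4s: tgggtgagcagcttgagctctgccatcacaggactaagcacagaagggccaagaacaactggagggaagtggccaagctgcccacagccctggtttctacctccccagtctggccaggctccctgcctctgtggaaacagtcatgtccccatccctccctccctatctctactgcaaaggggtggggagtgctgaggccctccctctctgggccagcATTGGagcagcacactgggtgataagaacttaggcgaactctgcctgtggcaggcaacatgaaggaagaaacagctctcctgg
Ptges: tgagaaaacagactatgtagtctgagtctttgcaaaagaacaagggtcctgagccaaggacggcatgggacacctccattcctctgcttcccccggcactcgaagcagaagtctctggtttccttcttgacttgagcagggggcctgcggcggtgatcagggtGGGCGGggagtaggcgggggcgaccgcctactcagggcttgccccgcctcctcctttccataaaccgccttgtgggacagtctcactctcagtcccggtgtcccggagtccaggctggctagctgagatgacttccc
Ptgs2: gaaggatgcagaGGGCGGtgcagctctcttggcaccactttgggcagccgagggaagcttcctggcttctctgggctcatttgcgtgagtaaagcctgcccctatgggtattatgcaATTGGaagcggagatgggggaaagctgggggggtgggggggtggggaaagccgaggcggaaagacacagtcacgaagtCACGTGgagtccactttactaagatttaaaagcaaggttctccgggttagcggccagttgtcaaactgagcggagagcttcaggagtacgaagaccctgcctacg
The search covered both strands for the TATA box TATAAA, the GC box GGGCGG, the CCAAT box CCAAT, the E-box CACGTG, the antioxidant response element core TGACNNNGC, the AP-1 site TGANTCA and the cyclic AMP response element TGACGTCA. Hpgd, Ptges and Ptgs2 held a GC box, as did 33.1% of the 33469 promoters searched. Ltc4s and Ptgs2 held a CCAAT box on the minus strand, found in 37.5% of all promoters. An E-box was present in Hpgd, beginning 23 bases downstream of the start, and in Ptgs2, beginning at base -55, against 6.42% of all promoters. No matches overlapped in these 4 windows. The other 4 motifs, which were present in 14.2%, 12.1%, 7.33% and 1.83% of promoters in the order named above, had no match in them, which says only that these letters are not in the window.

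Several array measures moved with genotype or with the order in which the grafts are listed. Abcc2, the gene of MRP2, had a signal of 0.0387 to 0.213 (median 0.150) in ABCC2-/- grafts and 0.787 to 0.987 (median 0.887) in wild-type grafts. The first-listed 3 grafts of each genotype (set 1: ABCC2-/- replicates 5, 9 and 11, wild-type replicates 1, 6 and 9) and the last-listed 3 (set 2: ABCC2-/- replicates 3, 10 and 14, wild-type replicates 4, 7 and 8) were separated by the brightest signal on the array, 88.7 to 109 in set 1 and 111 to 153 in set 2. The labels name no batch. The ratio of the 3′ to the 5′ Gapdh control signal, which falls as labelled fragments reach farther toward the 5′ end, was 1.28 to 1.36 in the 3 ABCC2-/- grafts of set 2 and 1.64 to 1.93 on the other 9 arrays. The matching actin ratio was 4.48 to 6.39 in those 3 grafts and 7.06 to 9.79 elsewhere. Of the bacterial transcripts that such labelling kits supply as poly-A controls, dap averaged 7.32 ± 0.899 in ABCC2-/- grafts and 1.13 ± 0.244 in wild-type grafts (SD, n = 6 each), and lys, phe and thr were likewise higher in every ABCC2-/- graft. Genotype and labelling controls thus went together without exception, and their effects cannot be told apart.

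**Figure D1:**
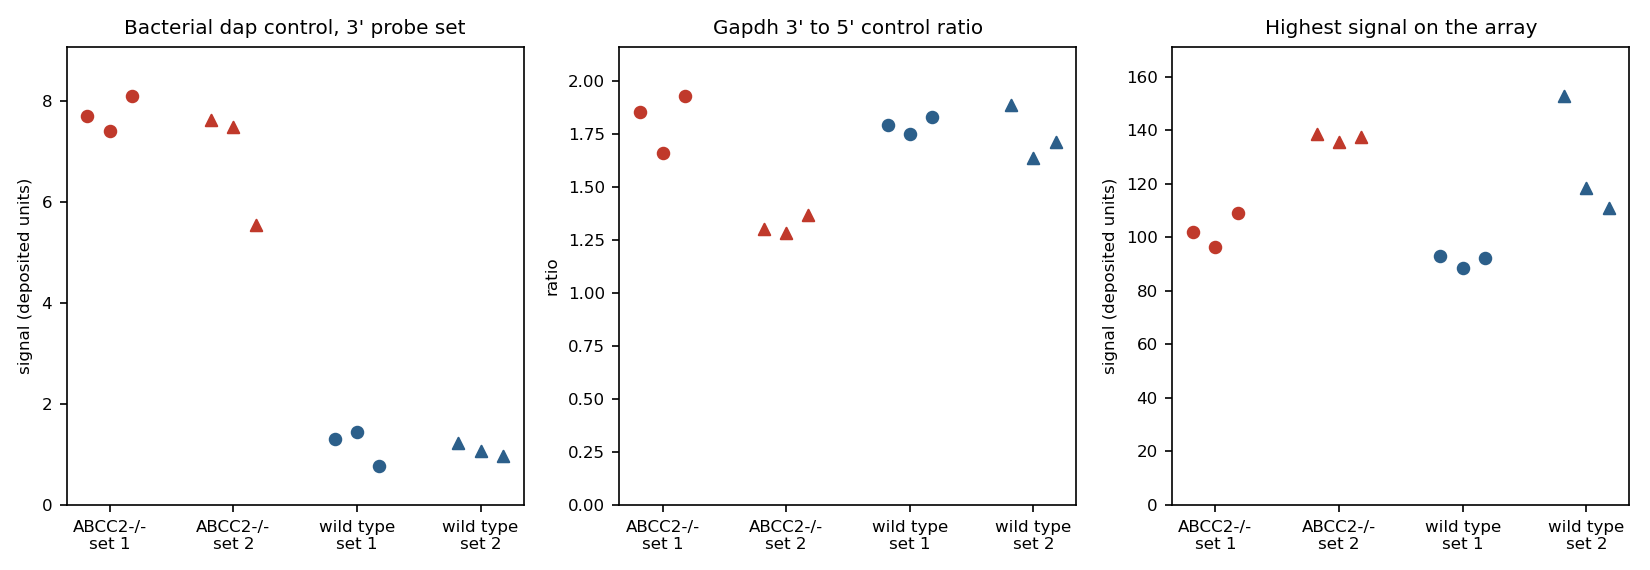
The dap control signal, the Gapdh 3′ to 5′ ratio and the highest signal on each array, with each point 1 graft and ABCC2-/- grafts left of wild-type grafts, divided by array set. The 3 ABCC2-/- grafts of set 2 have Gapdh ratios of 1.28 to 1.36, below the other 9 arrays, and the dap control is higher in every ABCC2-/- graft than in any wild-type graft.

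Between ABCC2-/- and wild-type grafts, an adjusted p under 0.05 was reached by none of the 10 probe sets of these genes that passed the level filter (limma, Benjamini-Hochberg over all probe sets tested). They belong to 8 genes, while Alox5, Ptger4 and a Ptgs1 probe set were too dim to be tested. Over the whole array 4 of 18625 probe sets (0.0215%) passed, all lower in ABCC2-/- grafts. At an unadjusted p under 0.05 the count was 1 of 10, a probe set of Hpgd, against 7.98% of all probe sets. No tested probe set of these genes had values that did not overlap between the genotypes, a pattern seen in 0.435% of all probe sets. The median log2 difference of the 8 genes, ABCC2-/- minus wild type, was 0.020, with 4 genes positive and 4 negative, and it was -0.041 over all 10639 genes tested. In whole cortex a smaller number of cells of a type and less RNA per cell cannot be told apart.

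**Figure D2:**
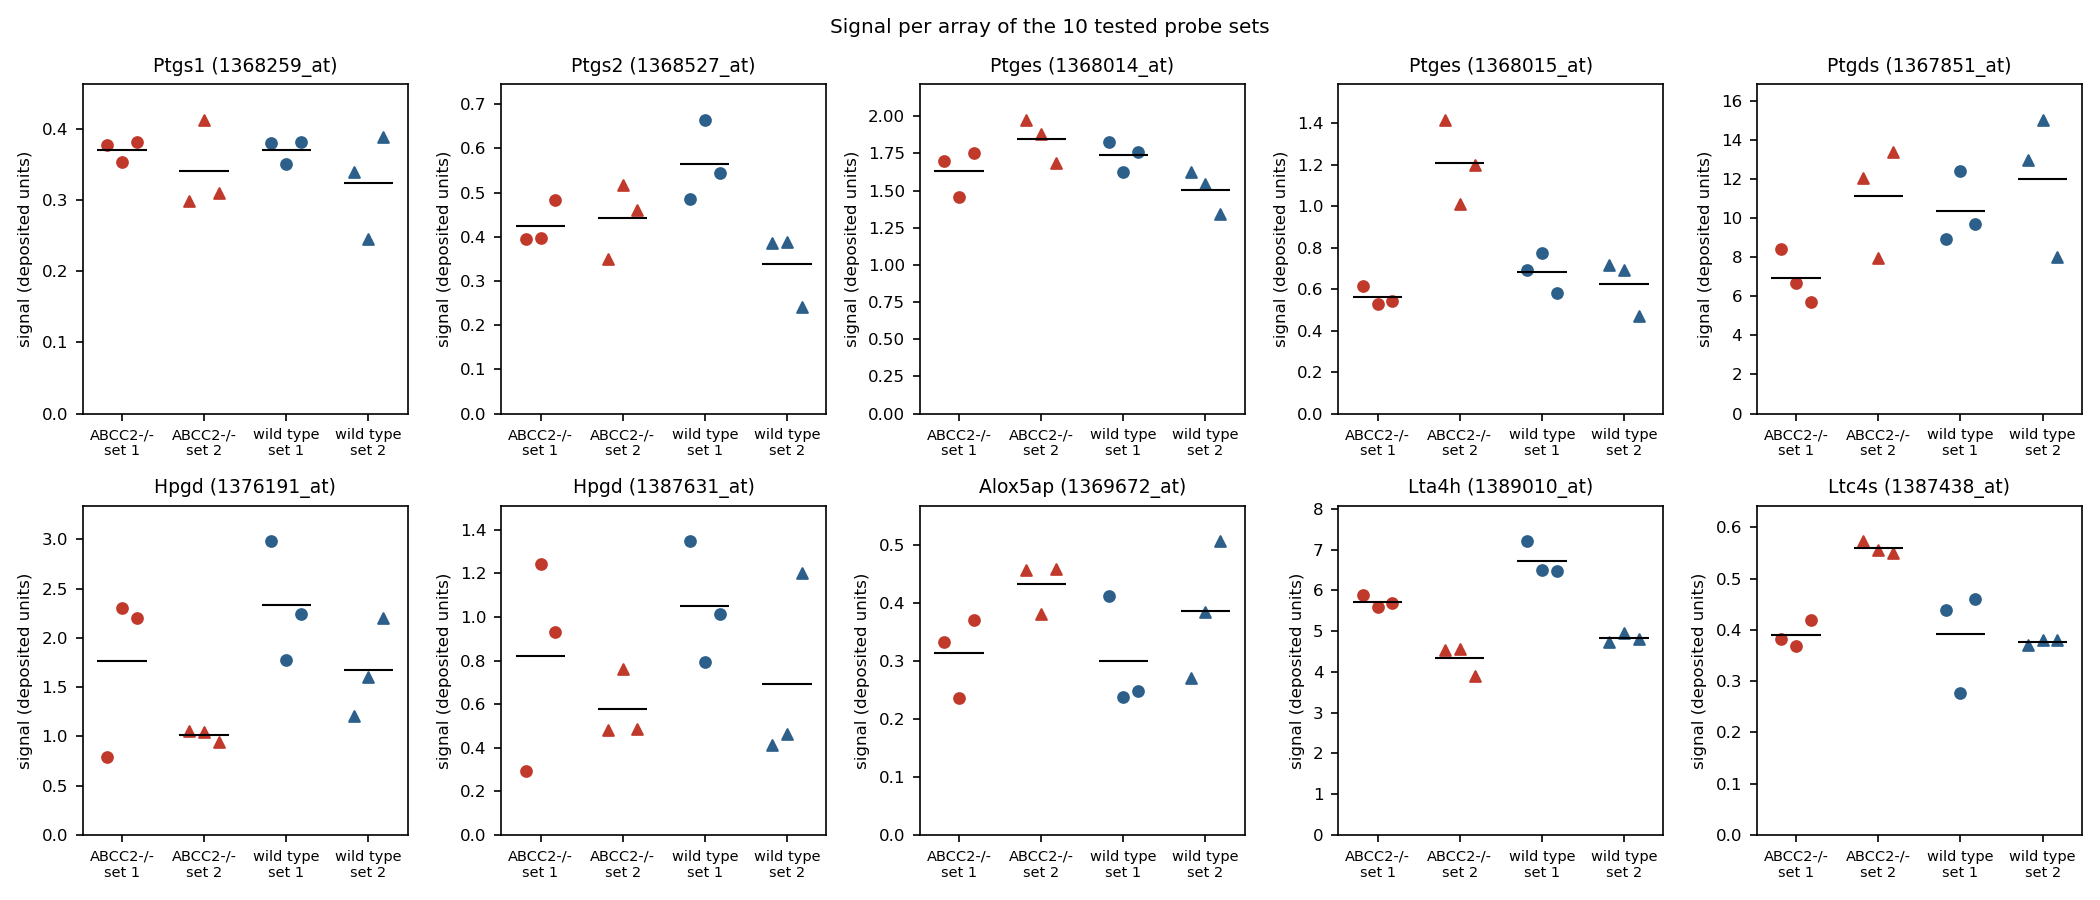
Signal of each probe set by array (vertical axis in deposited units), ABCC2-/- grafts left of wild-type grafts and divided by array set, with lines at the mean of each 3 arrays. The genotypes overlap in every panel. For Ptges (1368015_at) and Ltc4s the 3 ABCC2-/- grafts of set 2 lie above all the other arrays, as for 9.0% of all tested probe sets.

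The constitutive cyclooxygenase gene Ptgs1 had nearly the same signal in both genotypes. Probe set 1368259_at read 0.299, 0.365 and 0.413 (lowest, median and highest) in ABCC2-/- grafts and 0.246, 0.365 and 0.388 in wild-type grafts. Between the genotypes the log2 difference was 0.04 (SE 0.150, 95% confidence interval -0.28 to 0.36, exact two-sided permutation p = 0.805). Wild-type replicate 7 held the lowest value, 0.246, apart from the rest of its group, and without it the log2 difference was -0.057. Within array set 1 the log2 difference was -0.000835, and within set 2 it was 0.08. A dimmer Ptgs1 probe set, 1381806_at, reached the floor of 0.0694 in 3 of 6 ABCC2-/- and 4 of 6 wild-type grafts and was not tested. These arrays gave no detectable genotype difference for the gene.

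Ptgs2, the inducible cyclooxygenase, which the macula densa and interstitial cells of the kidney are known to express, had the smallest difference of all. Its signal was 0.351, 0.429 and 0.516 in ABCC2-/- grafts and 0.240, 0.437 and 0.665 in wild-type grafts (lowest, median and highest). This gave a log2 difference of -4.83e-05 (SE 0.204, 95% confidence interval -0.43 to 0.43, exact two-sided permutation p = 1.00). The array sets pulled in opposite directions. In set 1 the signals were 0.395, 0.397 and 0.483 in ABCC2-/- grafts and 0.484, 0.545 and 0.665 in wild-type grafts, a log2 difference of -0.40 (limma adjusted p = 0.405). In set 2 they were 0.351, 0.516 and 0.461 in ABCC2-/- grafts and 0.385, 0.389 and 0.240 in wild-type grafts, a log2 difference of 0.40 (limma adjusted p = 0.347). All ABCC2-/- grafts of set 1 lay below their wild-type counterparts, as for 13.2% of all tested probe sets, whereas in set 2 the genotypes overlapped. The difference between the sets in this genotype difference was 0.81 on the log2 scale (SE 0.313, limma adjusted p = 0.183), which did not pass.

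Ptges, the microsomal synthase that turns prostaglandin H2 into prostaglandin E2, is measured by 2 probe sets, whose log2 differences had the same signs within each array set but not the same size. The brighter, 1368014_at, read 1.45, 1.72 and 1.98 in ABCC2-/- grafts and 1.35, 1.62 and 1.83 in wild-type grafts, a log2 difference of 0.10 (SE 0.0993, exact two-sided permutation p = 0.264). The dimmer, 1368015_at, read 0.527, 0.813 and 1.42 in ABCC2-/- grafts and 0.469, 0.691 and 0.775 in wild-type grafts, a log2 difference of 0.34 (SE 0.232, exact two-sided permutation p = 0.234). Without ABCC2-/- replicate 3 the log2 difference of 1368015_at was 0.19, and that of 1368014_at was 0.07 without ABCC2-/- replicate 3 and 0.05 without wild-type replicate 8. The high values came from a single set of arrays. On 1368015_at the 3 ABCC2-/- grafts of set 2 read 1.42, 1.01 and 1.20, and their wild-type counterparts read 0.716, 0.692 and 0.469. In set 1 the signals were 0.616, 0.527 and 0.544 in ABCC2-/- grafts and 0.690, 0.775 and 0.579 in wild-type grafts. Thus every ABCC2-/- graft of set 2 exceeded all the other 9 arrays, as for 9.0% of all tested probe sets. In set 1 the genotypes overlapped with the ABCC2-/- grafts on the low side.

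Within set 2, Ptges measured by 1368015_at was higher in ABCC2-/- grafts by 0.96 on the log2 scale (SE 0.189, 95% confidence interval 0.55 to 1.37, limma adjusted p = 0.0150, higher in 3 of 3 grafts). It was the only probe set of these genes to pass there, where 6.39% of all probe sets passed (1190 of 18625). Within set 1 its log2 difference was -0.27 (SE 0.152, limma adjusted p = 0.529), and no probe set of these genes passed where 0.0215% of all did. The difference between the sets was 1.23 (SE 0.256, limma adjusted p = 0.0178), and it passed for this probe set alone among the 10, against 2.54% of all probe sets (473). The other Ptges probe set, 1368014_at, had log2 differences of -0.091 in set 1 and 0.30 in set 2 (limma adjusted p = 0.776 and 0.145). The same 3 grafts were those with low Gapdh ratios, and with that ratio as a covariate the log2 difference of 1368015_at over all 12 arrays was -0.03 (SE 0.182, limma adjusted p = 1.00). Their median log2 signals over the array were also higher, -1.57 to -1.66 against -1.70 to -1.77 in the wild-type grafts of set 2. The part of these measures in the result was not tested further. Over the 12 arrays the log2 signals of the Ptges probe sets had a Pearson correlation of 0.65, a description over arrays that share genotype, set and scaling.

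**Figure D3:**
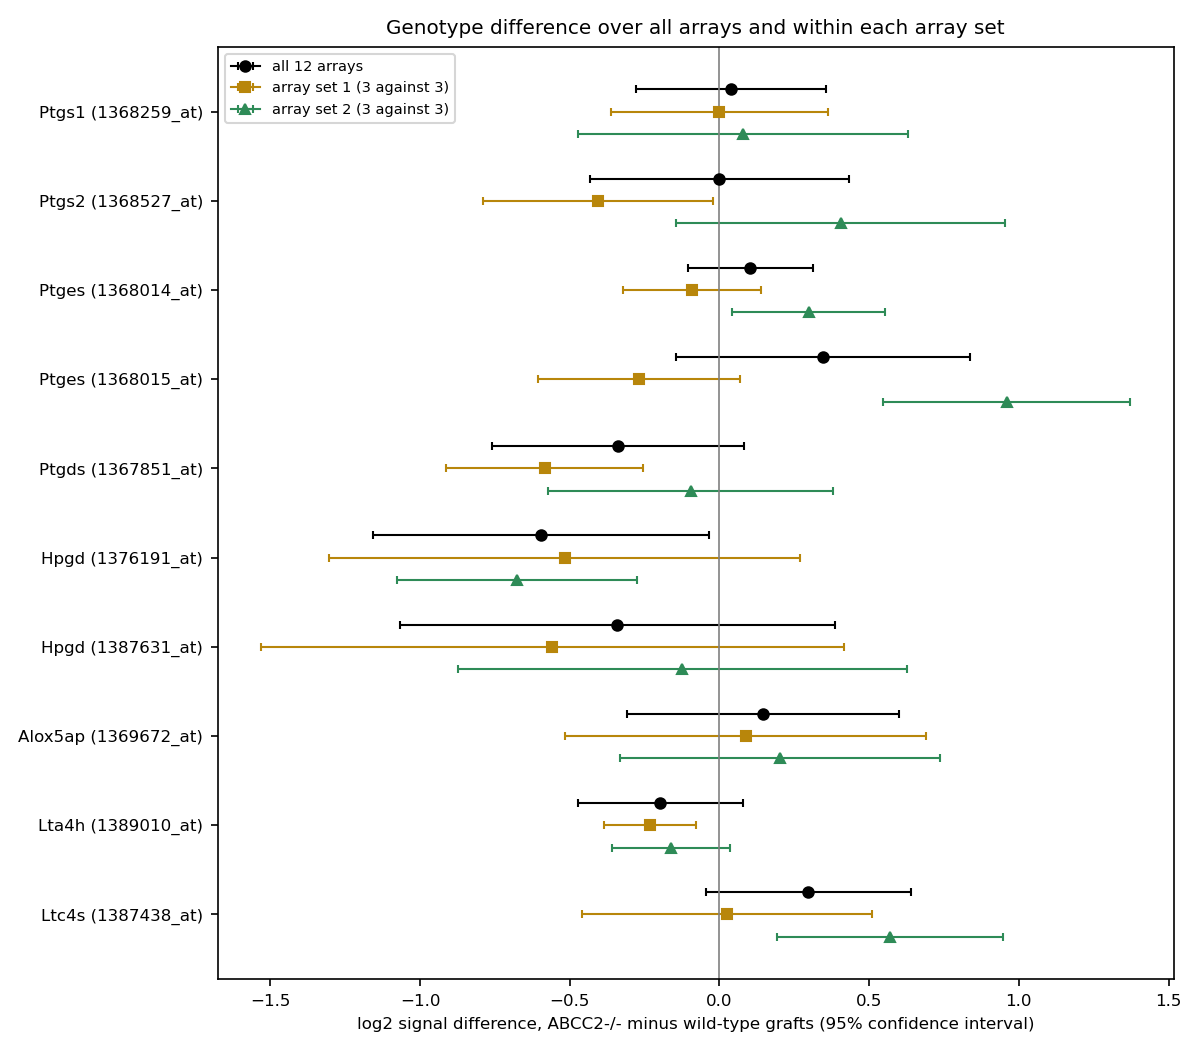
Log2 signal difference, ABCC2-/- minus wild-type grafts, for the 10 tested probe sets over all arrays and within each array set, with 95% confidence intervals. Ptges 1368015_at is at 0.96 within set 2 and at -0.27 within set 1, and both Hpgd probe sets are below 0 in all 3 fits.

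Ptgds, the lipocalin-type synthase of prostaglandin D2, which also binds small lipophilic ligands, had a lower median in ABCC2-/- grafts and did not pass the test. Its signal was 5.70, 8.17 and 13.4 in ABCC2-/- grafts and 8.03, 11.1 and 15.0 in wild-type grafts (lowest, median and highest). On the log2 scale the difference was -0.34 (SE 0.199, limma adjusted p = 0.635, exact two-sided permutation p = 0.182), with 3 ABCC2-/- grafts below all wild-type grafts. Set 1 held the difference. There the signals were 8.40, 6.68 and 5.70 in ABCC2-/- grafts and 8.92, 12.4 and 9.71 in wild-type grafts, without overlap (as for 13.2% of all probe sets in that direction), a log2 difference of -0.58 (SE 0.148, limma adjusted p = 0.244). In set 2 they were 12.04, 7.94 and 13.4 in ABCC2-/- grafts and 13.0, 15.0 and 8.03 in wild-type grafts, which overlapped, with a log2 difference of -0.097 (SE 0.218, limma adjusted p = 0.824). Over all arrays the log2 difference was -0.58 once the Gapdh ratio entered as a covariate (SE 0.188, limma adjusted p = 1.00) and -0.22 without ABCC2-/- replicate 11. The difference between the sets was 0.49 (SE 0.313, limma adjusted p = 0.438) and did not pass.

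Hpgd encodes 15-hydroxyprostaglandin dehydrogenase, the first enzyme of prostaglandin breakdown, and had the largest difference among these genes, though it did not pass. Its brighter probe set, 1376191_at, read 0.796, 1.05 and 2.31 in ABCC2-/- grafts and 1.21, 1.99 and 2.98 in wild-type grafts. This amounted to a log2 difference of -0.60 (SE 0.265, 95% confidence interval -1.16 to -0.035), with an unadjusted p of 0.0386 and an adjusted p of 0.614 by limma and an exact two-sided permutation p of 0.106. The signal was below every wild-type graft in 4 ABCC2-/- grafts and within the wild-type range in the other 2. Those 2 were replicates 9 and 11 of set 1, at 2.31 and 2.21, beside replicate 5 at 0.796. In set 2 the 3 ABCC2-/- grafts read 1.06, 1.05 and 0.946 and the wild-type grafts read 1.21, 1.60 and 2.20. In set 1 the wild-type grafts read 2.98, 1.77 and 2.25, so the genotypes overlapped there but not in set 2, where 14.4% of all probe sets were lower in ABCC2-/- grafts without overlap.

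The log2 difference of this Hpgd probe set was -0.52 within set 1 (SE 0.354, limma adjusted p = 0.609) and -0.68 within set 2 (SE 0.184, limma adjusted p = 0.0505), just outside the threshold. The second probe set, 1387631_at, read 0.294, 0.623 and 1.24 in ABCC2-/- grafts and 0.415, 0.905 and 1.35 in wild-type grafts. Its log2 difference was -0.34 (SE 0.343, limma adjusted p = 0.730, exact two-sided permutation p = 0.426), with 1 ABCC2-/- graft, replicate 5, below all wild-type grafts. It was -0.12 without that replicate, -0.54 without ABCC2-/- replicate 9, -0.53 without wild-type replicate 4 and -0.19 and -0.22 without wild-type replicates 1 and 8. Within set 1 it was -0.56 and within set 2 -0.12 (limma adjusted p = 0.664 and 0.860). The log2 signals of the 2 probe sets had a Pearson correlation of 0.88 over the 12 arrays. ABCC2-/- replicate 5 was the lowest array on both.

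In the leukotriene branch, Alox5 was below the floor of 0.0694 on all 12 arrays. Its signal was 0.0106 to 0.0202 in ABCC2-/- grafts and 0.010 to 0.0642 in wild-type grafts, where 3 arrays held the authors' minimum of 0.010, and no difference is given at this level. Alox5ap, the protein that presents arachidonic acid to Alox5, read 0.236, 0.376 and 0.458 in ABCC2-/- grafts and 0.237, 0.327 and 0.506 in wild-type grafts. Its log2 difference was 0.15 (SE 0.215, 95% confidence interval -0.31 to 0.60, exact two-sided permutation p = 0.537), and the groups overlapped almost fully. Leaving out single arrays moved it between 0.05 (without wild-type replicate 6) and 0.27 (without ABCC2-/- replicate 9), with 0.08 without ABCC2-/- replicate 3 or 14, 0.09 without wild-type replicate 4, 0.06 without wild-type replicate 9 and 0.27 without wild-type replicate 8. Within set 1 the log2 difference was 0.09 and within set 2 it was 0.20 (limma adjusted p = 0.929 and 0.653). Alox5ap is known chiefly from myeloid cells, and the summed signal of 15 myeloid markers was 43.9 to 65.9 (median 54.3) in ABCC2-/- grafts and 42.8 to 54.1 (median 51.3) in wild-type grafts. Of these markers 13 were tested and none passed, and the log2 difference was above 0 for 9 and below 0 for 4. The lowest unadjusted p-values were those of Mrc1, with a log2 difference of 0.38, and Csf1r, with 0.16 (limma adjusted p = 0.612 and 0.639). Itgam and Cd163 had medians below the floor in both genotypes. The part of myeloid cells in the Alox5ap signal was not tested.

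Ltc4s, which makes leukotriene C4 and hence the substrate of the missing transporter, was higher in 3 ABCC2-/- grafts than in any wild-type graft. Its signal was 0.368, 0.484 and 0.573 in ABCC2-/- grafts and 0.277, 0.380 and 0.460 in wild-type grafts (lowest, median and highest). The log2 difference was 0.30 (SE 0.162, 95% confidence interval -0.045 to 0.64, limma adjusted p = 0.628, exact two-sided permutation p = 0.0887) and did not pass. Leaving out single arrays moved it between 0.21 (without wild-type replicate 6, the lowest array) and 0.37 (without ABCC2-/- replicate 9). All 3 of the high grafts belonged to set 2, at 0.573, 0.555 and 0.549, against 0.370, 0.380 and 0.380 in the wild-type grafts of that set. In set 1 the signals were 0.382, 0.368 and 0.418 in ABCC2-/- grafts and 0.439, 0.277 and 0.460 in wild-type grafts, which overlapped. By set, the log2 difference was 0.57 within set 2 (SE 0.173, limma adjusted p = 0.0698) and 0.02 within set 1 (SE 0.217, limma adjusted p = 0.978). The difference between the sets was 0.55 (SE 0.270, limma adjusted p = 0.301) and did not pass.

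As with Ptges 1368015_at, the high Ltc4s values lay on the 3 arrays with the low Gapdh ratio, and 9.0% of all tested probe sets were higher on those 3 arrays than on all the others. With the Gapdh ratio as a covariate the log2 difference of Ltc4s was 0.13 (SE 0.166, limma adjusted p = 1.00). Mast cells are a known source of Ltc4s, and none of 8 mast cell markers passed the level filter. Tpsab1, Cma1 and Mcpt1 were below the floor on all 12 arrays, and the sum of the 8 was 0.438 to 0.670 in ABCC2-/- grafts and 0.385 to 0.636 in wild-type grafts. The myeloid sum was 55.4 to 65.9 in the ABCC2-/- grafts of set 2 and 52.7 to 54.1 in the wild-type grafts of set 2. This sum adds linear signals, so bright markers weigh most in it. Lyz2 alone had a median of 28.3 in all ABCC2-/- grafts and 26.4 in all wild-type grafts. The part of myeloid cells in the Ltc4s values was not tested.

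**Figure D4:**
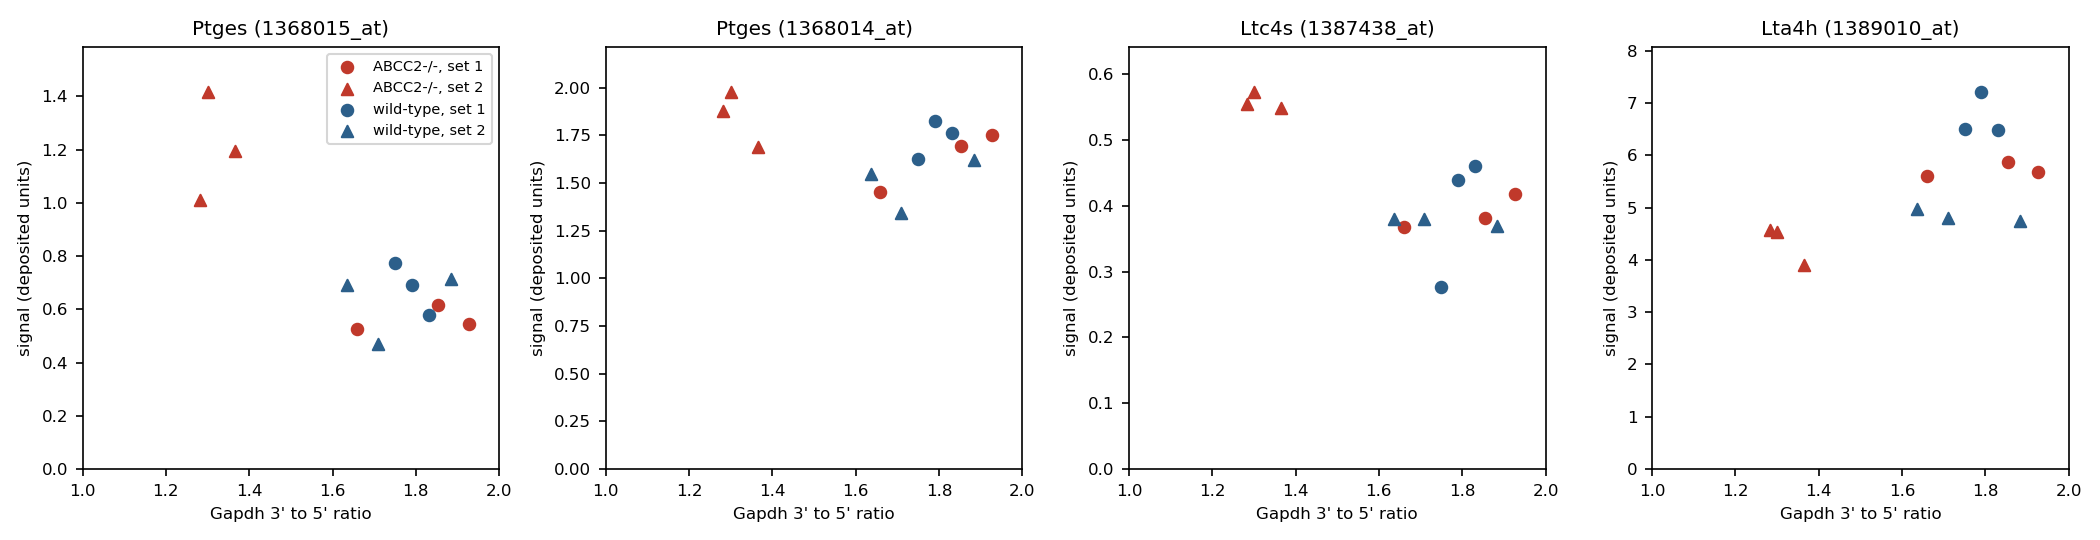
Signal of both Ptges probe sets, Ltc4s and Lta4h (vertical axis in deposited units) plotted against the Gapdh 3′ to 5′ ratio of the same array, each point 1 graft. The 3 ABCC2-/- grafts with ratios of 1.28 to 1.36 stand apart on the horizontal axis, and they hold the highest Ptges 1368015_at and Ltc4s values and the lowest Lta4h values. Of all tested probe sets, 9.0% were above and 9.4% below all the other arrays on these 3.

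Lta4h, the hydrolase that makes leukotriene B4, differed between the array sets in both genotypes. Its signal was 3.90, 5.09 and 5.88 in ABCC2-/- grafts and 4.74, 5.73 and 7.21 in wild-type grafts. The log2 difference was -0.20 (SE 0.130, 95% confidence interval -0.47 to 0.08, limma adjusted p = 0.639, exact two-sided permutation p = 0.197). In set 1 the ABCC2-/- grafts read 5.88, 5.60 and 5.68 and the wild-type grafts 7.21, 6.50 and 6.49. In set 2 the ABCC2-/- grafts read 4.53, 4.57 and 3.90 and the wild-type grafts 4.74, 4.97 and 4.81. Within each set every ABCC2-/- graft was below every wild-type graft, as for 2.57% of all tested probe sets. Within each genotype every graft of set 2 was below every graft of set 1. A shift between sets without overlap in both genotypes toward lower signal was found in 11.5% of all tested probe sets. The 3 ABCC2-/- grafts of set 2 were the lowest of all arrays, as for 9.4% of probe sets. The log2 genotype difference was -0.23 within set 1 and -0.16 within set 2 (limma adjusted p = 0.283 and 0.297), and with array set as a block the standard error fell to 0.0578 for the same difference (limma adjusted p = 0.100), where 0.601% of all probe sets passed. With the Gapdh ratio as a covariate the log2 difference was -0.05 (SE 0.122, limma adjusted p = 1.00). With array set and the Gapdh ratio together it was -0.24 (SE 0.0701, limma adjusted p = 0.270). With genotype as the only factor it was -0.13 without ABCC2-/- replicate 14 or without wild-type replicate 1. In none of these fits did Lta4h pass.

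Ptger4, the EP4 receptor through which prostaglandin E2 raises cyclic AMP, was too dim to be tested. It reached the floor in 2 of 6 ABCC2-/- grafts, with a range of 0.0412 to 0.205 (median 0.0562), and in 3 of 6 wild-type grafts, with a range of 0.0173 to 0.271 (median 0.120). At this signal a genotype difference was not detectable. Other prostanoid receptors were also dim, and of 6 on the array only Ptger3, the EP3 receptor, was tested, with a log2 difference of 0.03 (SE 0.114, limma adjusted p = 0.930).

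Among the other genes of the pathway, 26 of the 50 on the array were tested, and the only one to pass was Abcc2 itself, lower in ABCC2-/- grafts with a log2 difference of -2.69 (SE 0.216, limma adjusted p = 8.35e-06). None of the 26 passed on the higher side, and their log2 differences were positive for 12 and negative for 14. Of 9 genes of arachidonate release 5 were tested and none passed. The lowest unadjusted p there was that of Pla2g10, a secreted phospholipase A2, which read 0.537 to 1.03 (median 0.651) in ABCC2-/- grafts and 0.405 to 0.660 (median 0.474) in wild-type grafts, a log2 difference of 0.48 (SE 0.176, limma adjusted p = 0.606). Next came Pla2g12a, another secreted phospholipase A2, with a log2 difference of -0.11 (SE 0.0984, limma adjusted p = 0.711). Of 8 other prostanoid synthases 6 were tested and none passed, with Cbr1 at 0.19 and Cbr4 at 0.15 (limma adjusted p = 0.634 and 0.639). Both are carbonyl reductases, and Cbr1 can reduce prostaglandin E2.

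All 6 other genes of prostaglandin breakdown and transport were tested, and none passed. Ptgr2, a reductase that acts on the 15-keto prostaglandins that Hpgd forms, read 3.37 to 4.98 (median 4.03) in ABCC2-/- grafts and 4.58 to 5.48 (median 5.11) in wild-type grafts. Its log2 difference was -0.31 (SE 0.0974, limma adjusted p = 0.606). Abcc4 (MRP4), an exporter that carries prostaglandins, read 3.49 to 5.10 (median 3.75) in ABCC2-/- grafts and 2.50 to 4.03 (median 3.19) in wild-type grafts, a log2 difference of 0.31 (SE 0.122, limma adjusted p = 0.606). Both genes overlapped between the groups. Of 13 genes of leukotriene export, conversion and breakdown 8 were tested. Apart from Abcc2 none of them passed, and Abcc1, another exporter of leukotriene C4, had a log2 difference of 0.02 (SE 0.124, limma adjusted p = 0.954). The 4 other lipoxygenases and the 4 leukotriene receptors on the array were too dim to be tested.

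**Figure D5:**
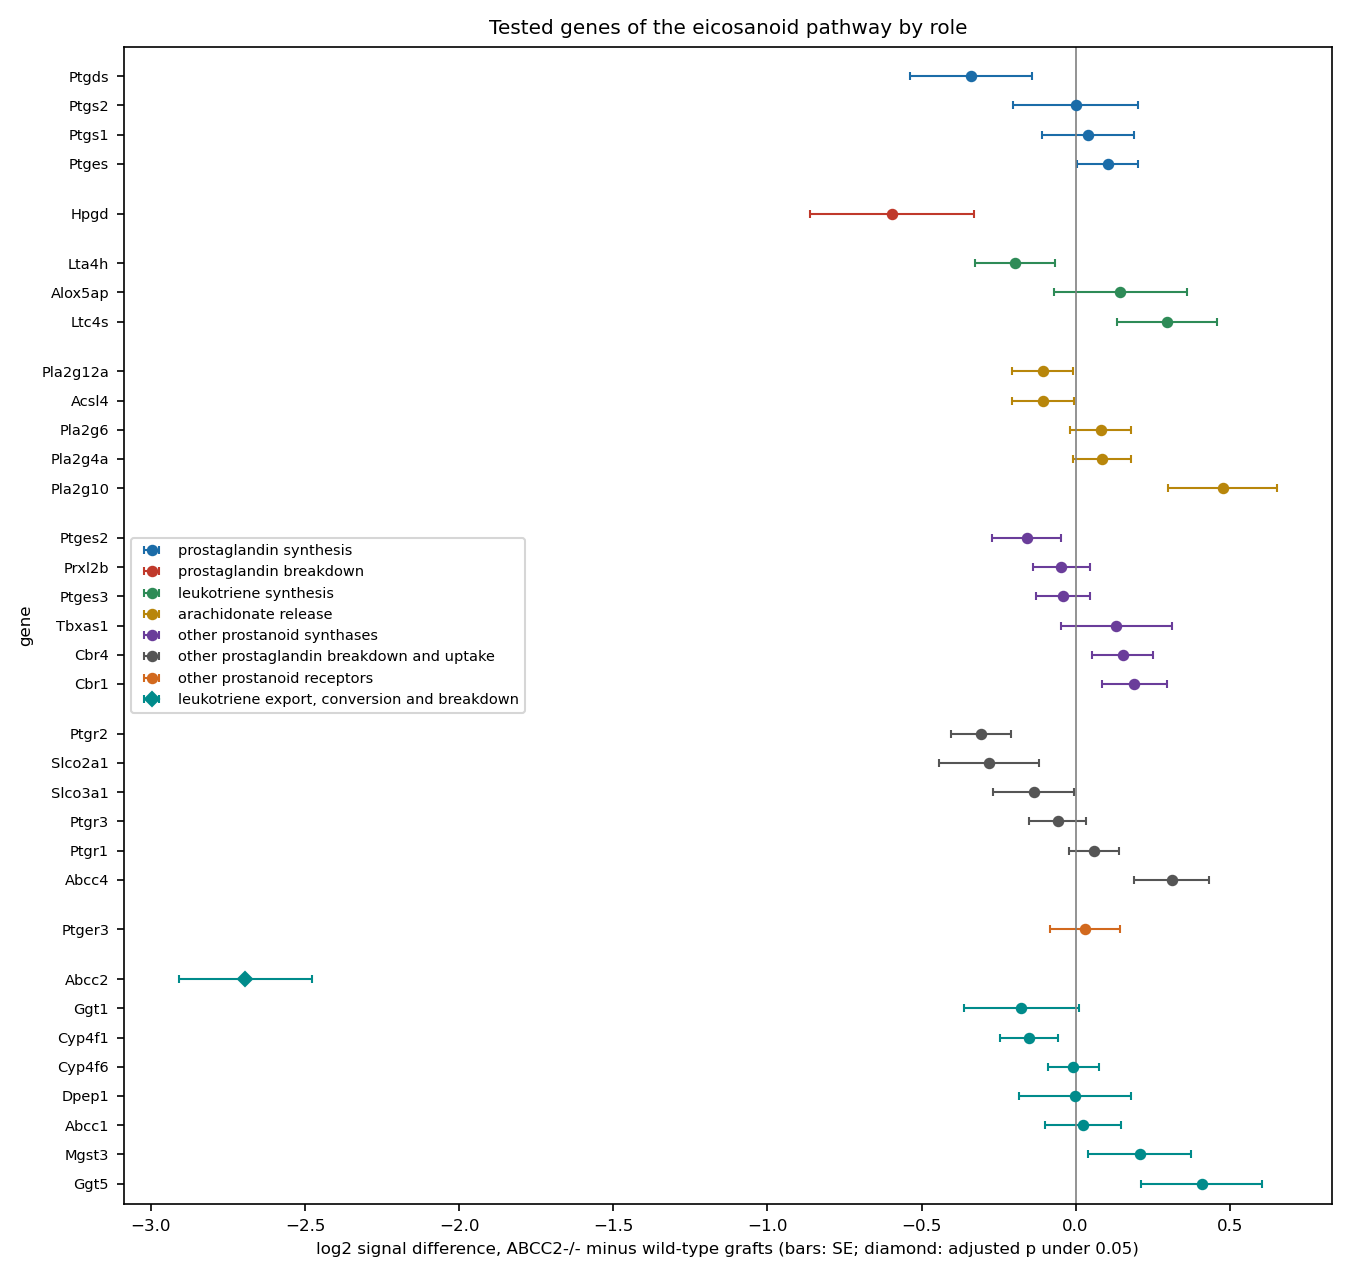
Log2 signal difference, ABCC2-/- minus wild-type grafts, of every tested pathway gene by its brightest probe set, grouped by role, with standard errors. Abcc2 at -2.69 is the only gene past an adjusted p of 0.05, and the others lie between -0.60 and 0.48.

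Marker genes of kidney segments and other cell types were compared between the genotypes. Without a reference tissue they could not test the cortical origin of the samples. All 8 proximal tubule markers were tested and none passed, and their summed signal was 233 to 256 in ABCC2-/- grafts and 232 to 302 in wild-type grafts. The log2 difference was below 0 for 7 of the 8, with Slc5a2, the glucose transporter SGLT2, at -0.38 and Cubn, an endocytic receptor, at -0.22 (unadjusted p = 0.00376 and 0.0481, limma adjusted p = 0.606 and 0.623). The 4 medullary markers on the array were also above the filter, with sums of 11.9 to 14.6 in ABCC2-/- grafts and 11.1 to 14.9 in wild-type grafts, and Slc5a3 at -0.21 and Akr1b1 at 0.08 did not pass (limma adjusted p = 0.645 and 0.730). Of 3 neutrophil markers on the array only S100a9 was tested, and the sum of the 3 was 0.510 to 2.37 in ABCC2-/- grafts and 0.536 to 0.804 in wild-type grafts. S100a9 had a log2 difference of 0.56 (SE 0.441, limma adjusted p = 0.677). No marker of another nephron segment or of stroma passed either. Their lowest unadjusted p-values belonged to Slc12a1 (-0.13) and Kcnj1 (0.18) of the thick ascending limb, Scnn1g (-0.14) and Avpr2 (0.44) of the collecting duct and Nphs1 (-0.24) and Podxl (-0.15) of the glomerulus, all as log2 differences. In fibroblasts and smooth muscle they belonged to Dcn (0.36) and Myh11 (0.19), and in endothelium to Tek (-0.18) and Tie1 (-0.10).

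For each of the 8 tested genes, the genes whose log2 signal ran most alike over the 12 arrays were listed after genotype means were removed, out of 10638 others. The array sets and the scaling are common to all of them, so the correlations are descriptions. Lta4h had the closest companions, Eid1 with a Pearson correlation of 0.99 and then Nek7 and Echs1, both at 0.98. Hpgd ran most like Ppic (0.95), Nek6 (0.94) and Mme (0.93), the last of which encodes the brush border peptidase neprilysin. Ptgs2 was followed by Sema3e (0.94), Enox2 (0.94) and Mab21l3 (0.91). For Ptges they were Kif26b (0.94), Crem (0.92) and Afg1l (0.88). Ltc4s ran most like Gdf15 (0.90), which encodes a secreted stress-responsive factor, Lxn (0.90) and Sgce (0.87). Alox5ap was nearest to Rsu1 (0.94), Fam222a (0.92) and Map4k4 (0.90), Ptgds to Mrpl2 (0.92), Clpp (0.91) and Tmem88 (0.91), and Ptgs1 to Kifap3 (0.92), Nop14 (0.87) and Zdhhc14 (0.87). No gene appeared in more than 1 of these lists.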

How the data were processed

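Biotin-labelled RNA of renal cortex was hybridised to Affymetrix 3′ arrays, 1 per graft, per the labels' protocols. The authors deposited a linear intensity for each probe set, and the submitters' processing notes name MAS5 and GCOS with no version. No genome build is given in the sources used here. The deposited minimum is 0.010, which 3.56% of the values hold, so differences between dim probe sets are hidden.

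For the comparison, 57 control probe sets were left out, values under the pooled 20th percentile (0.0694) were set to that value before taking log2, which understates the change of dim genes. Probe sets whose mean log2 signal reached the 40th percentile (-2.53), 18625 in number, were tested with limma 3.58.1 in R 4.3.3 (lmFit, eBayes with trend), with genotype as the only factor and Benjamini-Hochberg adjustment over all of them (threshold 0.05). The fit was tested on simulated data. Each probe set was also given an exact permutation p, two-sided, from every assignment of arrays to groups, with 0.00216 as the smallest possible. No p is adjusted over these genes alone. The number of arrays, 6 per genotype, limits the precision.

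Groups and replicate numbers came from the sample titles. Every probe set of the 10 genes is named, and the probe set with the highest mean represents a gene. From each list of other pathway genes or cell markers, the genes that passed were named, and where none did, those 2 whose unadjusted p was lowest, and for likeness the 3 genes with the highest correlation. Genes named outside this rule (Abcc1, the bright marker Lyz2 and the markers that were dim: Itgam, Cd163, Tpsab1, Cma1 and Mcpt1) were chosen after their values were seen. The members and lists were chosen with earlier results of these data known. Alternatives covered the floor, the filter, the scaling, the variance model, array weights, the Gapdh ratio, the array sets and leaving out each array. The interaction of genotype with array set and the joint fit of array set and Gapdh ratio were added after seeing the data.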

Additional observations from a re-analysis of the deposited data

Results flagged for a closer look

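The Ptgs1 signal (1368259_at) of wild-type replicate 7 was 0.246. Its log2 gap to the nearest array, as a share of the range of its group, exceeded Dixon's critical value. No other value was flagged by this rule in 20 groups of 6 arrays, and chance gives about 1 in 20. The genotype difference of Ptges (1368015_at) differed between array sets by 1.23 on the log2 scale. Outside the genes described, the bacterial labelling controls were higher in ABCC2-/- than in wild-type grafts, by 6.47-fold for dap, 5.32-fold for lys, 3.98-fold for phe and 6.19-fold for thr, with no overlap between the genotypes.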

How the results depend on the processing

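The count of 4 probe sets past the threshold over the whole array became 2 with the filter at the 60th percentile, 112 with array set as a block (38 higher, 74 lower), 3 with that block and the Gapdh ratio together (all lower) and 1190 within array set 2. Among the 10 probe sets of the eicosanoid genes the count was 0 in every setting except within array set 2, where it was 1, Ptges 1368015_at at 0.96. Leaving out each array in turn gave 3 to 5 calls over the array and 0 among these genes. No paired analysis was possible because the groups share only 1 replicate number.

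Of 146 log2 differences under 15 alternatives, 135 kept their direction and side of the threshold, 1 came to pass and 10 changed sign. Ptgs1 (1368259_at) was -0.017 with arrays centred on their median, -0.010 after quantile normalization and -0.000835 within set 1. For Ptges 1368015_at it was -0.029 given the Gapdh ratio as covariate, -0.035 with array set as well and -0.27 within set 1, and Ptges 1368014_at was -0.091 within set 1. Ptgs2 was 0.025 with the Gapdh ratio and 0.40 within set 2, and Alox5ap was -0.029 with the Gapdh ratio. Of 120 values with 1 array left out, 8 changed sign, ranging from -0.17 to 0.13 for Ptgs2 (-4.83e-05 over all arrays) and from -0.057 to 0.088 for Ptgs1. The causes were not tested. Dim signal limits Alox5 and Ptger4.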
